A study of Mus musculus with 2 samples.

Results

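Corticosteroids act in the vessel wall through a small set of genes, and 8 of these were followed here across the cells of the mouse abdominal aorta. They were chosen by role from textbook knowledge of the pathway: the glucocorticoid receptor Nr3c1 and the mineralocorticoid receptor Nr3c2, the activating enzyme Hsd11b1, and the response genes Sgk1, Fkbp5, Tsc22d3, Klf9 and Per1. The files list 33696 genes, and the 8 are among them. The study compared single-cell RNA sequencing (scRNA-seq) of abdominal aortas from the Control group and the AngII+HS group, with 1 library in each. All mice were C57BL/6J males aged 5 months. Control mice received saline, whereas AngII+HS mice received angiotensin II (AngII) at 1500 ng/kg/min from implanted minipumps for 28 days together with drinking water holding 0.9% NaCl and 0.2% KCl, a combination that gives aneurysms of the abdominal aorta. Tissue of 5 mice was pooled per library according to the series' design text, while the extraction notes speak of a single control mouse and a pair of treated mice. With 1 library per group, no test between groups was possible. Every interval given below is a 95% interval for counting error only, and covers neither the spread between mice nor that between preparations. Intervals of levels and ratios take UMIs as independent, and so leave out the spread between cells as well.

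The glucocorticoid receptor is found in nearly all cells and binds corticosterone, the main glucocorticoid of the mouse, after which it leaves its chaperones and enters the nucleus. The mineralocorticoid receptor binds aldosterone and corticosterone with like affinity, and in the vessel wall it is known from endothelial cells, smooth muscle cells and macrophages. Hsd11b1 makes corticosterone from its inactive 11-keto form inside the cell, while Hsd11b2 does the reverse and thereby keeps corticosterone from the mineralocorticoid receptor. Sgk1 encodes a kinase that raises sodium transport and is induced through both receptors. Fkbp5 encodes a co-chaperone that lowers the affinity of the receptor for its hormone, Tsc22d3 encodes the leucine zipper protein GILZ, Klf9 a zinc finger repressor, and Per1 a protein of the circadian clock. All 5 are well-known genes of the glucocorticoid response, and each also has other inputs.

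The Control library held 11448 barcodes and the AngII+HS library 24804, of which 10269 and 19734 cells were kept, with a median of 7274 and 3066 unique molecular identifiers (UMIs) per cell. Levels are UMIs of a gene summed over the cells of a type per 1000000 UMIs of those cells, given as CPM below. Clustering gave 26 clusters, numbered c0 to c25 by size, and 10 cell types were held by at least 50 cells of both libraries: fibroblasts, vascular smooth muscle cells (VSMCs), vascular endothelial cells (VECs), lymphatic endothelial cells (LECs), macrophages, dendritic cells (DCs), neutrophils, T cells, B cells and neural cells. The makeup of the libraries differed, with 5466 VSMCs in the Control library against 886 in the AngII+HS library, 474 against 4419 macrophages, and 98 against 4657 neutrophils. RNA from outside the cell was estimated at 4.01% of UMIs in lymphocytes of the Control library and 7.74% in those of the AngII+HS library. Barcode lists recorded with the libraries had each other's lengths, and whether the count matrices were exchanged as well cannot be told from the files. Such an exchange would turn round all directions given here. The lists shared 67 barcodes. On GRCm39, GENCODE places Nr3c1 at chr18:39543598-39652474, Nr3c2 at chr8:77625576-77971863, Hsd11b1 at chr1:192903918-192946489, Sgk1 at chr10:21758083-21875802, Fkbp5 at chr17:28618058-28737521, Tsc22d3 at chrX:139440091-139501408, Klf9 at chr19:23118187-23148497 and Per1 at chr11:68986035-69002300.

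First, the receptors were compared across cell types. Nr3c1 was highest in T cells, with 739 CPM in Control and 792 in AngII+HS cells, and the next type stood at 255 (neutrophils, Control) or 225 (B cells, AngII+HS). Markers of natural killer cells summed to 376 CPM in the T cells of each library. The intervals of T cells and the next type did not overlap in either library. T cells consisted of 2 clusters that differed: cluster c19, led by Calca, Il23r and Il2ra, held 1769 CPM of Nr3c1 in 35 Control cells and 1376 in 224 AngII+HS cells, against 427 and 645 in the larger cluster c10, led by Gm2682. Outside T cells the Control levels of Nr3c1 lay between 142 in neural cells and 255 in neutrophils, apart from 37.5 in the 55 DCs. In the Control library the types from VSMC through B cell, fibroblast and VEC to neural cell formed a run in which no neighbouring pair differed beyond counting error. Types further apart in it could differ: the interval of VSMCs, 169 to 176, lay above those of fibroblasts, 146 to 162, and VECs, 141 to 164. LECs, at 198, stood above VSMCs, at 172, with an interval of the log2 ratio from 0.01 to 0.38.

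Nr3c2 was highest in LECs, with 271 CPM in Control and 264 in AngII+HS cells. VECs came next with 104 and 61.4, and the intervals of LECs and VECs were apart in both libraries. VSMCs held 54.3 and 54.8, B cells 70.5 and 44.8, and neural cells 57.3 and 61.3. In the Control library no neighbours in the order VECs, B cells, neural cells and VSMCs differed beyond counting error. VECs and VSMCs themselves did, with intervals of 94.5 to 114 and 52.3 to 56.3. The B cells and neural cells between them held only 24 and 27 UMIs, in 8 and 22 cells. Fibroblasts were lower at 30.5 and 19.0, and T cells held 17.5 and 17.7. Neutrophils held 2 UMIs of Nr3c2 in Control and 22 in AngII+HS cells, or 3.54 CPM in the latter, where RNA from outside the cell alone was estimated to give 1.84. Shares of cells were taken after thinning each cell of at least 1000 UMIs to 1000 UMIs, with shallower cells left out. Of the thinned cells, 21.3% of Control LECs had a UMI of Nr3c2 (interval 14.8 to 29.2) and 22.4% of AngII+HS LECs (16.0 to 30.1). The shares were 2.99% and 0.541% in macrophages. Before thinning the shares in LECs were 67.4% and 58.6%.

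**Figure D1:**
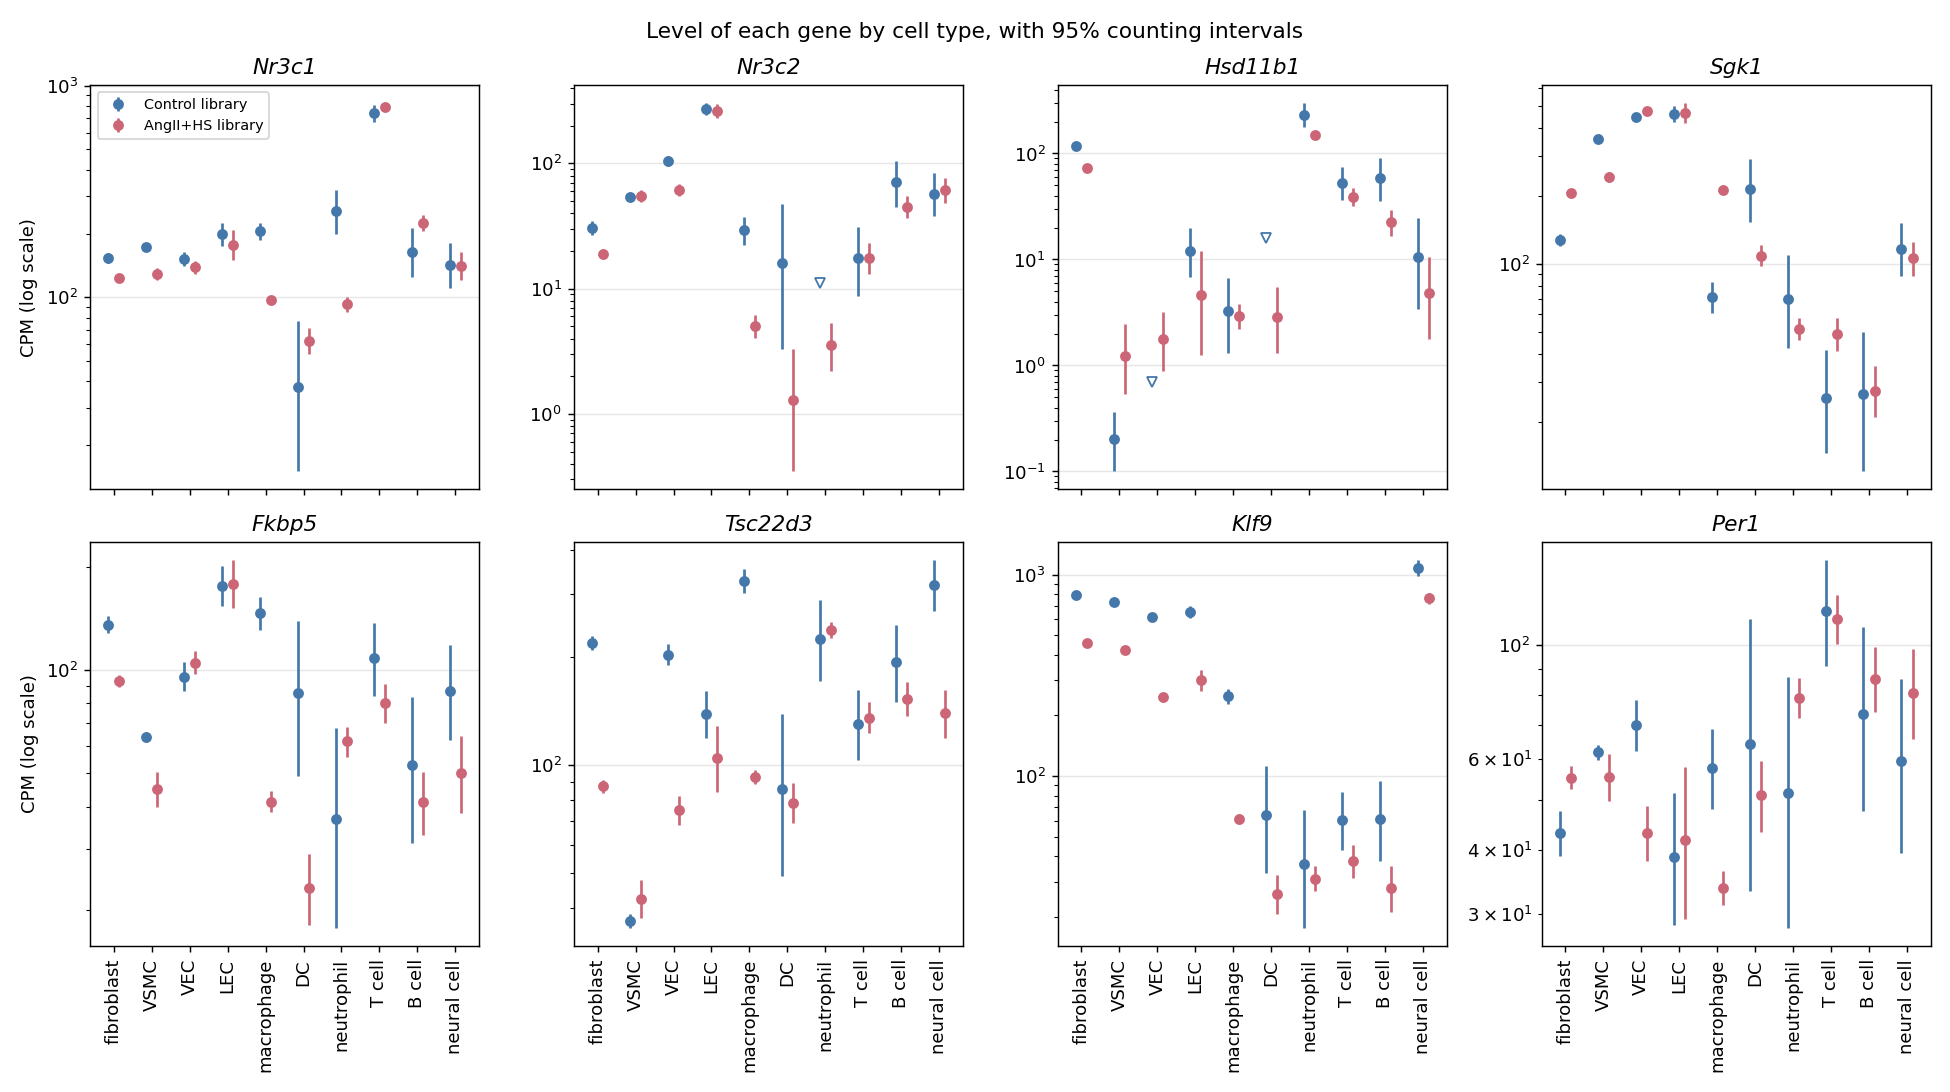
Level of the 8 genes in 10 cell types, in CPM on a log axis. Points are the single Control (blue) and AngII+HS (red) libraries, bars are 95% counting intervals, and open triangles mark cells with fewer than 3 UMIs at the level that 3 UMIs would give. Nr3c1 stands out in T cells, at 739 and 792, and Nr3c2 in LECs, at 271 and 264.

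The balance of both receptors therefore differed between cell types by more than counting error. In LECs, the ratio of Nr3c1 UMIs to Nr3c2 UMIs was 0.731 in the Control library (interval 0.618 to 0.865), and 0.670 in AngII+HS cells (0.542 to 0.826). LECs were the only type of the 10 with a ratio below 1 in either library. VECs had ratios of 1.46 and 2.26, VSMCs 3.18 and 2.35, fibroblasts 5.03 and 6.50, and T cells 42.2 and 44.7. In macrophages the ratio was 7.0 (5.37 to 9.27) in the Control library and 19.2 (15.7 to 23.8) in the AngII+HS library. These intervals did not overlap, but the macrophages were of different clusters. In c2, Nr3c1 and Nr3c2 had 393 and 62 UMIs in Control and 899 and 88 in AngII+HS cells. In c4, with 40 Control and 2095 AngII+HS cells, the latter had 905 and 7. The part of this makeup in the change was not tested. The value of such a ratio rests on how well each transcript is captured, which is not known. Its differences between cell types are free of this only if capture was alike in all types, which was not tested.

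**Figure D2:**
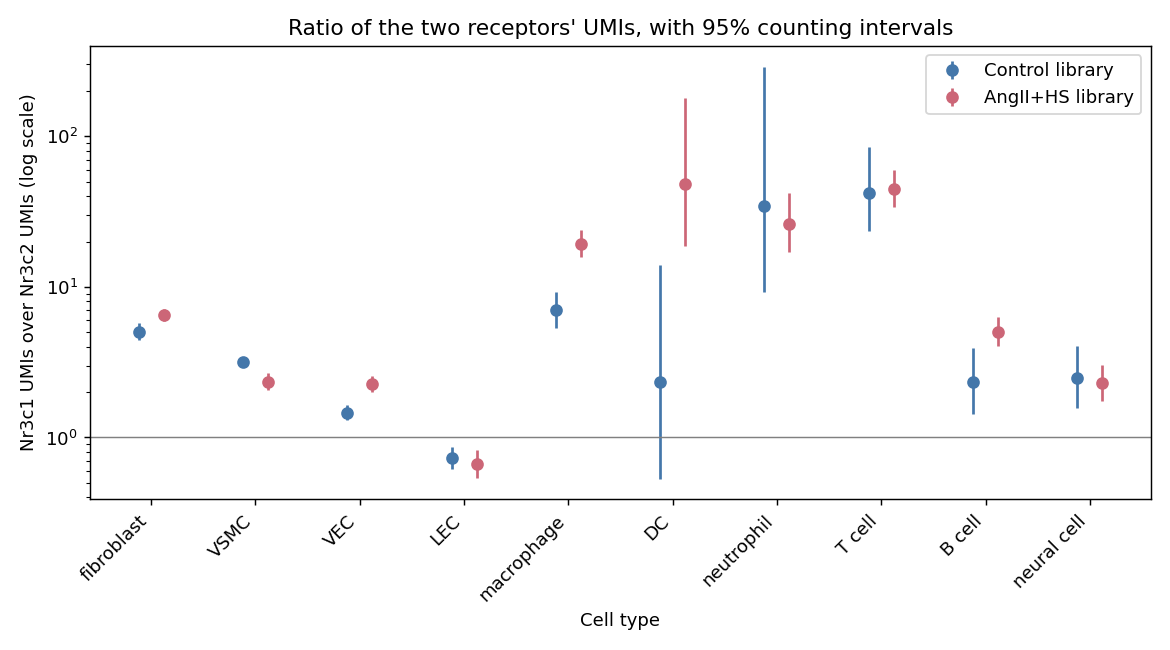
Ratio of Nr3c1 UMIs to Nr3c2 UMIs by cell type, on a log axis, in the Control (blue) and AngII+HS (red) libraries, with 95% counting intervals. LECs are below 1 in both libraries, at 0.731 and 0.670, and macrophages, whose clusters differ between the libraries, are at 7.0 and 19.2.

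Hsd11b1 had a narrow distribution. It was highest in neutrophils, at 232 CPM in Control and 150 in AngII+HS cells, followed by fibroblasts at 116 and 72.4. T cells held 52.5 and 38.9 and B cells 58.7 and 22.4. In VSMCs only 11 UMIs were counted in 5466 Control cells and 8 in 886 AngII+HS cells, and VECs held 2 and 11. RNA from outside the cell was estimated to give 0.711 CPM of Hsd11b1 in Control and 3.19 in AngII+HS cells. The levels in VSMCs, VECs and macrophages of the AngII+HS library, between 1.24 and 2.90, were below that estimate, whereas those in neutrophils, fibroblasts, T cells and B cells were above it in both libraries. At 1000 UMIs per cell, 12.4% of Control neutrophils had a UMI of Hsd11b1 and 11.6% of those of the AngII+HS library, compared with 0.230% and 0.329% of macrophages. Left out for having fewer than 1000 UMIs were 1 of 98 Control and 848 of 4657 AngII+HS neutrophils. Before thinning the shares were 31.6% and 13.9% in neutrophils, whose median depth was 2741 and 1266 UMIs, and 1.27% and 1.2% in macrophages, whose median depth was 4254 and 4030. The opposing enzyme Hsd11b2, singled out after its values were seen, reached no more than 5.87 CPM in any of the 10 types, and in fibroblasts was counted 10 times in the Control library and 20 times in the AngII+HS library. H6pd, which supplies the cofactor of Hsd11b1, was at 87.2 and 108 CPM in fibroblasts, at 19.9 and 17.6 in VSMCs, and at 6.05 and 10.6 in macrophages.

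The response genes had different leading cell types. Sgk1 was highest in both kinds of endothelium, with 461 and 466 CPM in LECs and 447 and 475 in VECs, which did not differ beyond counting error in either library. Fkbp5 was highest in LECs at 176 and 179. In the Control library macrophages came next at 147, with overlapping intervals of the levels and a log2 ratio interval from 0.01 to 0.52. Tsc22d3 was highest in macrophages (327) and neural cells (319) of the Control library, which did not differ beyond counting error, but in neutrophils (239) of the AngII+HS library. Klf9 was highest in neural cells at 1081 and 761, followed by fibroblasts at 793 and 458 and VSMCs at 733 and 421. Per1 was highest in T cells, at 116 and 112, and its levels spanned the narrowest range of the 8 genes, 2.99-fold from LECs to T cells in the Control library. T cells and B cells (73.4) of the Control library did not differ in Per1 beyond counting error, with a log2 ratio interval from -0.01 to 1.38. Read from the levels alone, the same cell type was highest in both libraries for 6 of the 8 genes, the exceptions being Sgk1 and Tsc22d3.

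Over 20 profiles, each of 1 cell type in 1 library with at least 100 cells, the genes most like each of the 8 were found by Pearson correlation of log2(CPM + 5) among 8078 genes. The profiles share 2 libraries, and r is a description. Klf9 was most like Nfic (r = 0.97), Dusp8 (r = 0.97) and Dlc1 (r = 0.96). Nr3c1 was most like Abcb9 (r = 0.92), Aak1 (r = 0.91) and Rnf138 (r = 0.90), and Nr3c2 most like Sptan1 (r = 0.90), Zbtb2 (r = 0.90) and Foxj2 (r = 0.89). Sgk1 was most like Capns1, Ywhab and Tmem109 (r = 0.92 each). Fkbp5 was closest to Sh3gl1 (r = 0.83), Nrxn2 (r = 0.81) and Prrg1 (r = 0.80), Per1 to Mfap1b (r = 0.82), Fbxl20 (r = 0.80) and Kdm5b (r = 0.79), Tsc22d3 to Zfp236 (r = 0.77), Gm20559 (r = 0.76) and Trim30a (r = 0.75), and Hsd11b1 to Gm56906 (r = 0.74), Gsdme (r = 0.71) and Angptl1 (r = 0.69). Between the 8 genes themselves, r was 0.68 for Nr3c2 and Klf9, 0.65 for Nr3c2 and Fkbp5, 0.65 for Sgk1 and Klf9 and 0.62 for Nr3c1 and Per1, and it was -0.52 for Hsd11b1 and Sgk1.

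Next, the levels of the AngII+HS library were compared with those of the Control library within each cell type. A pair of gene and cell type was compared if it had at least 20 UMIs over both libraries, which 74 of 80 pairs did. The level was lower in the AngII+HS library in 51 pairs and higher in 23. The interval of the log2 ratio lay wholly below 0 in 35 pairs and wholly above 0 in 7. The matching shares over all genes were not computed, so these counts of signs and intervals are not read further. Past 2-fold, 16 pairs (21.6%) were lower, compared with 8.9% of 113117 pairs formed with all genes in the same way, and 1 pair (1.35%) was higher, compared with 12.1% of all pairs. The single pair that was higher was Sgk1 in macrophages. Over all genes the median log2 ratio was between -0.15 and 0.11 in 9 cell types and 0.44 in neutrophils.

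**Figure D3:**
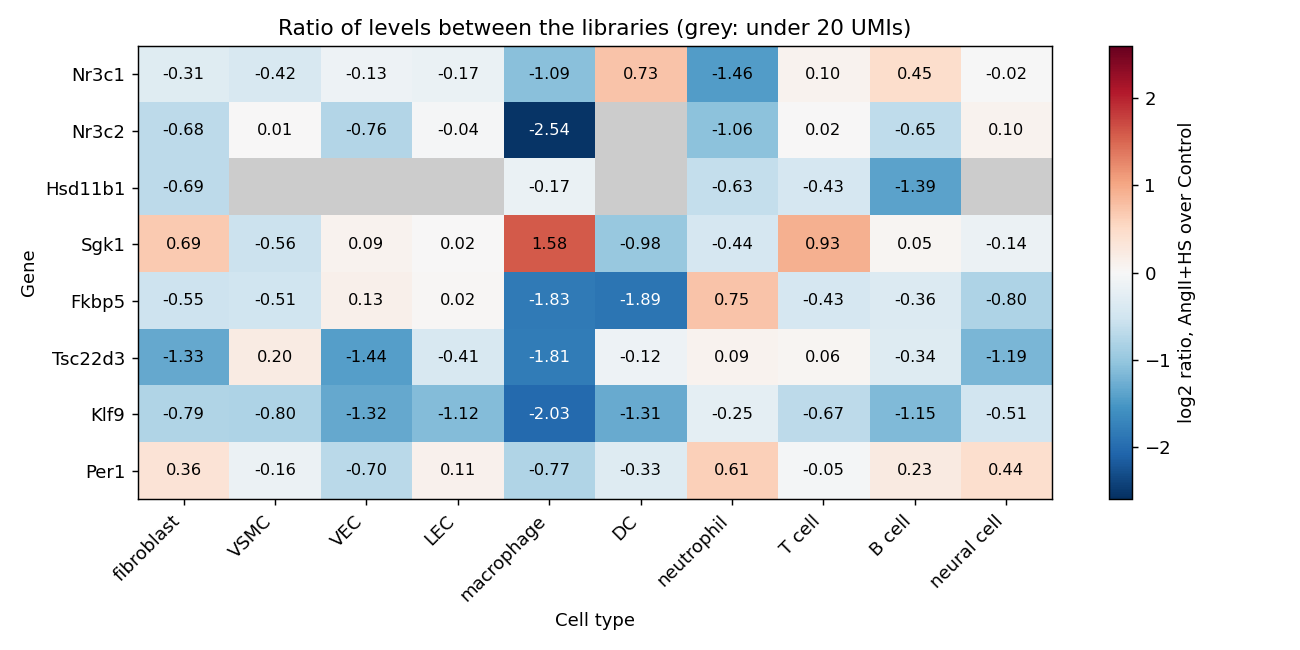
Log2 ratio of the AngII+HS level over the Control level for 8 genes (rows) in 10 cell types (columns), with the value in each cell and grey where both libraries together had under 20 UMIs. Blue is lower and red higher in the AngII+HS library. Klf9 is below 0 in all 10 types (above 0 in neutrophils with TMM factors), and macrophages hold 5 genes below -1 and Sgk1 at 1.58.

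Klf9 was lower in the AngII+HS library in all 10 cell types as scaled here, though not in neutrophils with TMM factors (trimmed means of M-values), and past 2-fold in 5. In VECs it stood at 617 CPM in Control and 247 in AngII+HS cells (log2 ratio -1.32, interval -1.41 to -1.23), in LECs at 651 and 299 (-1.12, -1.33 to -0.92), and in macrophages at 249 and 61.2 (-2.03, -2.18 to -1.88). Fibroblasts (-0.79) and VSMCs (-0.80) were lower by less than 2-fold. The intervals of the 2 libraries were apart in each of these types. DCs (-1.31) and B cells (-1.15) were also past 2-fold, at levels of 26.0 and 27.9 in the AngII+HS library. In these, T cells and neutrophils the AngII+HS level was between 26.0 and 37.9, where RNA from outside the cell was estimated to give 19.9, against 28.3 in the Control library. The direction was turned in DCs by merging the libraries without integration (0.64), in T cells by keeping all doublets (0.12), and in neutrophils by TMM factors (0.38) or by subtracting RNA from outside the cell. In the other 7 types it was kept under all 12 alternatives.

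Within clusters Klf9 was again lower throughout: its log2 ratio was below 0 in 16 of 16 named clusters with at least 50 cells in both libraries, with the interval wholly below 0 in 13. A pair of unnamed clusters of that size, c6 and c16, had Klf9 ratios of -0.57 and -0.23. In VECs it was -1.61 in cluster c8, led by Fabp4 and Gpihbp1, and -1.03 in cluster c12, led by Cytl1, Gja5 and Bmp6. In the 3 VSMC clusters it was between -0.94 and -0.78, and in the 3 fibroblast clusters between -0.83 and -0.51. The value nearest to 0 was -0.07, in cluster c22 of neural cells, with the myelin gene Mbp among its leading genes. Shares of all genes that were lower within clusters were not computed, so the counts of clusters are not read further.

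Tsc22d3 differed by cell type. It was lower past 2-fold in fibroblasts, with 220 CPM in Control and 87.4 in AngII+HS cells (log2 ratio -1.33, interval -1.42 to -1.24), in VECs with 204 and 75.0 (-1.44, -1.61 to -1.28), in macrophages with 327 and 93.0 (-1.81, -1.94 to -1.69) and in neural cells with 319 and 140 (-1.19, -1.51 to -0.86). By contrast, it was at 36.8 and 42.4 in VSMCs (0.20, 0.02 to 0.39), at 131 and 136 in T cells (0.06, -0.29 to 0.42) and at 225 and 239 in neutrophils (0.09, -0.28 to 0.48). In VSMCs, where it was lowest of all types in both libraries, the level was thus slightly higher in the AngII+HS library. RNA from outside the cell was estimated to give 3.45 and 7.73 CPM of Tsc22d3, and with it subtracted the VSMC ratio was 0.06. The intervals of the fibroblast, VEC, macrophage and neural cell ratios do not overlap those of VSMCs, T cells or neutrophils. Within clusters, Tsc22d3 was lower past 2-fold in 7 of 16 named clusters, among them all 3 fibroblast clusters (-1.20 to -1.43) and both VEC clusters (-1.34 and -1.53), and its ratio was -1.47 in the unnamed cluster c6 and -0.07 in c16. No share over all genes was computed for clusters, so this count is not read further. For fibroblasts the summed level of the dissociation and immediate early genes was alike in both libraries, at 17498 and 17304 CPM, although Hspa1a was at 251 and 707. In VECs it was lower, at 19321 and 14147, with 2 of 14 genes lower past 2-fold, Egr1 (-1.14) and Fos (-1.06), and its part in the lower Tsc22d3 and Klf9 there was not tested.

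**Figure D4:**
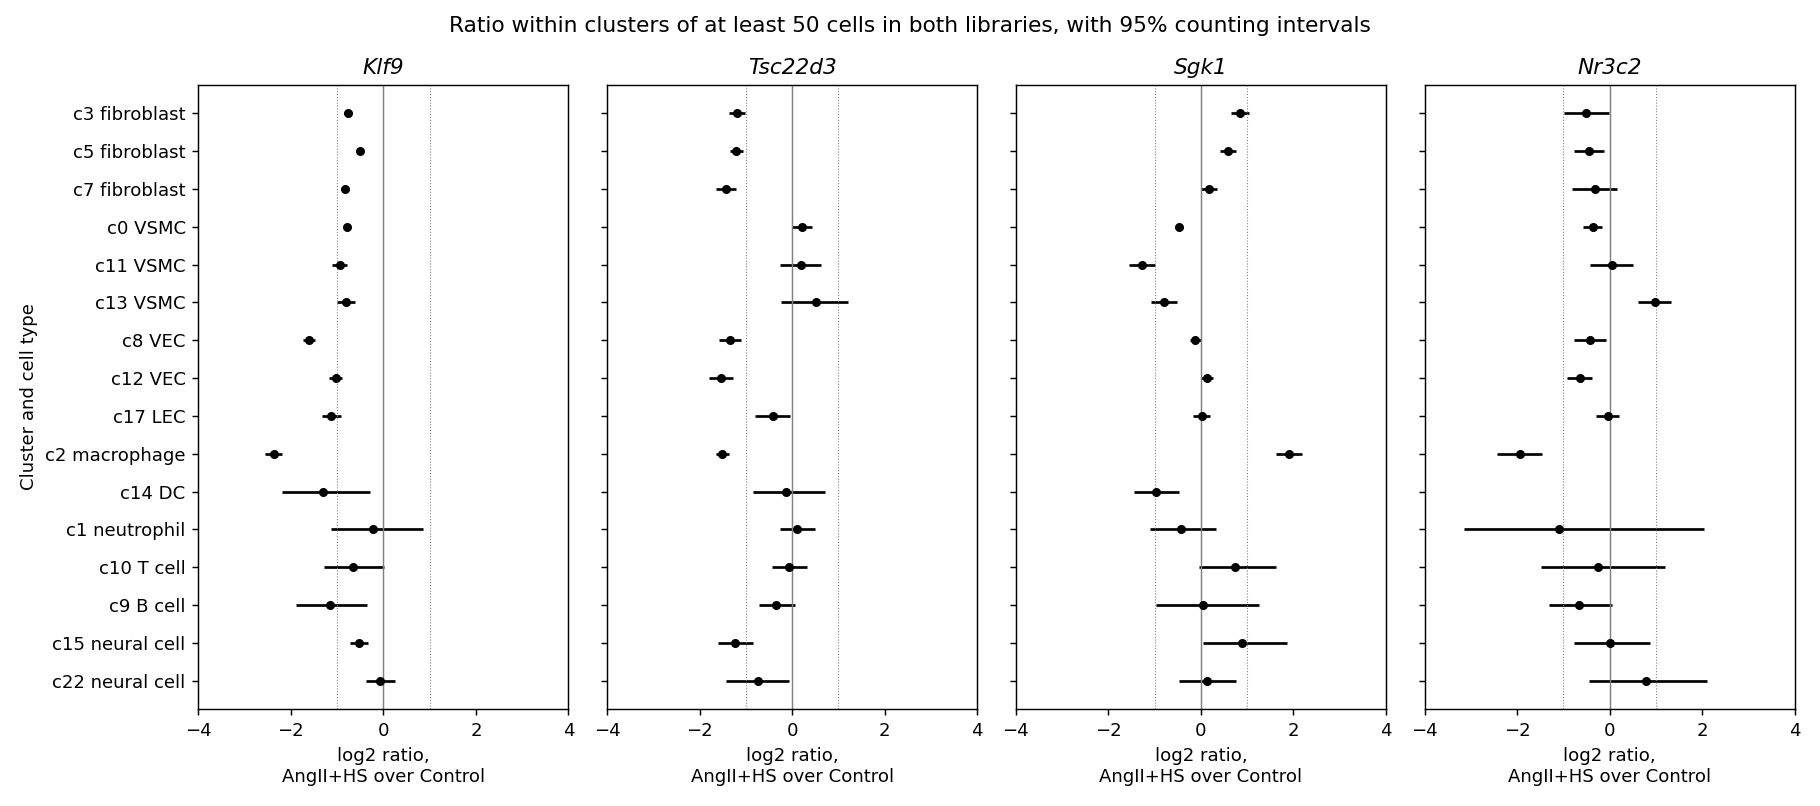
Log2 ratio of the AngII+HS level over the Control level within the 16 named clusters of at least 50 cells in both libraries, for 4 genes, with 95% counting intervals. Solid lines mark equal levels and dotted lines 2-fold, and pairs under 20 UMIs are left out. Klf9 lies below 0 in every cluster shown, Tsc22d3 lies below -1 in the fibroblast and VEC clusters but not in those of VSMCs, and Sgk1 is highest in macrophage cluster c2, at 1.90.

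In macrophages, 5 of the 8 genes were lower and 1 was higher past 2-fold in the AngII+HS library, compared with 16.9% of 13705 genes lower and 12.5% higher. Beside Klf9 and Tsc22d3, Fkbp5 stood at 147 CPM in Control and 41.3 in AngII+HS cells (log2 ratio -1.83, interval -2.02 to -1.64). Nr3c1 stood at 205 and 96.6 (-1.09, -1.24 to -0.93), and Nr3c2 at 29.3 and 5.02 (-2.54, -3.02 to -2.06). Thus both receptors and 3 response genes had lower levels there. Sgk1 went the other way, at 71.2 and 214 (1.58, 1.35 to 1.83). Per1 was at 57.7 and 33.8 (-0.77, -1.05 to -0.48), and Hsd11b1 was at 3.26 and 2.90 on 7 and 56 UMIs, the latter below the estimate for RNA from outside the cell.

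The macrophages of the libraries were of different clusters. Of 474 Control macrophages, 428 were in cluster c2, led by C1qa and Mrc1, while the AngII+HS library held 2229 in c2 and 2095 in cluster c4, led by Arg1 and Ccl24, to which the Control library gave 40. Within c2 the differences were still there, with log2 ratios of -1.26 for Nr3c1, -1.95 for Nr3c2, -1.76 for Fkbp5, -1.51 for Tsc22d3, -2.37 for Klf9 and 1.90 for Sgk1. Cells of c2 themselves differed between the libraries: Lyve1, a gene of resident macrophages that was picked after its values were seen, was at 667 and 57.8 CPM there. The part of such differences in the result was not tested. In c4 the AngII+HS library held 207 CPM of Sgk1, 105 of Nr3c1, 73.1 of Klf9, 51.6 of Tsc22d3, 27.5 of Fkbp5 and 0.815 of Nr3c2.

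Merging the libraries without integration lessened some of the differences in macrophages, but not all. The log2 ratio was then -0.62 for Klf9 and -0.65 for Nr3c1, and those of Tsc22d3 and Sgk1 came to lie just within 2-fold, so that no pair at all was higher past 2-fold. The direction of Per1 turned, to 0.03. By contrast, the ratio of Hsd11b1 went from -0.17 to -2.33. Nr3c2 and Fkbp5 stayed lower past 2-fold under every alternative, with ratios no nearer to 0 than -2.30 and -1.59. Heat shock and immediate early genes, which respond to tissue dissociation, were also lower in AngII+HS macrophages, with a summed level of 16187 and 9166 CPM and 7 of 14 genes lower past 2-fold, led by Hspa1b (-2.10) and Hspa1a (-1.79). Summed levels of the 6 fibroblast markers in macrophages were 151 and 622, and those of the 6 VSMC markers 823 and 465, with no marker at 0. Their part in the result was not tested.

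Sgk1 differed by cell type as well. In fibroblasts it was higher in the AngII+HS library, at 128 and 206 CPM (log2 ratio 0.69, interval 0.59 to 0.78), as was Per1 (0.36), where Klf9, Tsc22d3 and Fkbp5 (136 and 92.9) were all lower. In VSMCs it was lower, at 356 and 242 (-0.56, -0.63 to -0.48), with Per1 at -0.16, and in VECs it was nearly level, at 447 and 475 (0.09, 0.00 to 0.17). The intervals of these 3 ratios did not overlap. Within clusters, Sgk1 was higher in all 3 fibroblast clusters (0.84, 0.58 and 0.18) and lower in all 3 VSMC clusters (-0.47, -1.26 and -0.79). Per1 was at 0.71 in fibroblast cluster c3 and 0.34 in c5, but at -0.24 in c7 (-0.58 to 0.10). Fkbp5 was at -0.15 in c3 (-0.38 to 0.09), -0.35 in c5 and -0.52 in c7. In T cells Sgk1 was at 25.5 and 48.7 (0.93, 0.18 to 1.78), on 16 and 140 UMIs, and in DCs at 214 and 109 (-0.98, -1.45 to -0.47). In VSMCs the summed level of dissociation and immediate early genes was 30012 and 14498, with 8 of 14 genes lower past 2-fold, and its part in the lower Sgk1 there was not tested.

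Of the 7 genes with a promoter window at hand, Sgk1 was the only one with a full palindromic steroid receptor element in a window around an annotated start. The windows span 300 bases, from 250 before to 50 after each RefSeq start on GRCm38.p6. The 7 genes have 15 of them: 6 for Sgk1, 3 for Tsc22d3, 2 for Per1 and 1 for each other gene. Sgk1 thus had the most windows in which a match could be found. The element was searched as AGAACA and TGTTCT with 3 free bases between them, a sequence that reads the same on both strands. It was in 3 of 32851 windows (0.00913%), and in 1.84% if up to 2 mismatches in the arms are allowed. At least 1 of the arms was in 19.0% of windows. The Sgk1 window that holds it is shown because Sgk1 was the gene with a level that was higher past 2-fold, with both arms in capitals (plus strand, chr10:21993640-21993939). The first capital lies at position -189, counting the start as 0.
Sgk1: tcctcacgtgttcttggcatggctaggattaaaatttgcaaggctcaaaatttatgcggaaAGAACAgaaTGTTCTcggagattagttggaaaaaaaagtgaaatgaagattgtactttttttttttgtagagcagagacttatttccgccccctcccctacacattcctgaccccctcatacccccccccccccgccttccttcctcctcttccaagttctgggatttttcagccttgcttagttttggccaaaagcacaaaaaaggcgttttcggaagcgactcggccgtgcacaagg
The other windows of Sgk1 held between 2 and 5 mismatches at their best match. Windows of Nr3c2, Hsd11b1, Fkbp5, Tsc22d3, Klf9 and Per1 held 4 or more. The Klf9 and Tsc22d3 genes, which were lower in most cell types, thus had no such element in these windows, and a window of this length says nothing of elements elsewhere. The clock element CACGTG was in 7.15% of all windows. It was in the same Sgk1 window, in the window of Fkbp5 and in 1 of 2 windows of Per1, which is shown because Per1 is the clock gene of the 8, with the element in capitals (plus strand, chr11:69098699-69098998).
Per1: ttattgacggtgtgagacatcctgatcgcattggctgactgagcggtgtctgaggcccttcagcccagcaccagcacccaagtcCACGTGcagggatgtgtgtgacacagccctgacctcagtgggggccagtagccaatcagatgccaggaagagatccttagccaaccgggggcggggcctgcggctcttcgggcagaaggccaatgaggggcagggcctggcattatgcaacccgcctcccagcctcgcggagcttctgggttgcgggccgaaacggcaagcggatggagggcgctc
A match is a description of the sequence and was not tested as a binding site.

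In VSMCs none of the 7 genes compared was past 2-fold in either direction, compared with 11.6% of 15694 genes lower and 6.14% higher. In fibroblasts 1 of 8 was lower, Tsc22d3, compared with 8.7% of 15747 genes lower and 7.85% higher. In VECs 2 of 7 were lower, Tsc22d3 and Klf9, compared with 5.99% of 13153 genes lower and 8.23% higher. Although within 2-fold, Nr3c2 was lower in VECs, at 104 and 61.4 CPM (log2 ratio -0.76, interval -0.96 to -0.56), and in fibroblasts, at 30.5 and 19.0 (-0.68, -0.90 to -0.46). Of the VECs, 341 of the Control library and 809 of the AngII+HS library were in c8, and 497 and 395 in c12, where Nr3c2 was higher, and the ratio was -0.43 within c8 and -0.65 within c12. In fibroblasts the Nr3c2 ratio was nearer to 0 within clusters, at -0.52 in c3, -0.45 in c5 and -0.32 in c7 (-0.81 to 0.16). Fibroblast cluster c20, with 172 cells of the AngII+HS library and none of the Control library, held 1.71 CPM. The part of this makeup in the fibroblast ratio was not tested. Hsd11b1 was lower in fibroblasts, at 116 and 72.4 (-0.69, -0.80 to -0.58). Fibroblast clusters were not alike in this: Hsd11b1 was at 194 and 98.7 in cluster c5, led by Dio2 and Fst, but at 38.9 and 62.8 in cluster c7, led by Sdk1 and Clec3b.

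The Nr3c2 ratio over all VSMCs (0.01, -0.15 to 0.17) was 0.65 with equal weight per cell, and it also hid clusters that went apart. In c0, the main VSMC cluster, Nr3c2 was at 53.7 and 41.8 CPM (-0.36, -0.57 to -0.16). In c13, a cluster led by Fgf14 and Lrrtm3, it was at 84.5 and 166 (0.97, 0.60 to 1.33). Cells of c13 were of lower depth, with a median of 2535 UMIs against 9994 in c0. Intronic reads, which can add to the UMIs of long genes such as Nr3c2, were not counted apart. Their part in the c13 value was not tested. Nr3c1 was lower in c0, at 173 and 128 (-0.44, -0.55 to -0.32). Likewise, Fkbp5 in VECs was nearly level overall (0.13, -0.05 to 0.32), at 133 and 147 in c8 (0.14, -0.08 to 0.37), but at 71.8 and 28.7 in c12 (-1.32, -1.76 to -0.90). The Nr3c1 level of T cells was alike in the libraries (0.10, -0.04 to 0.25), while in c10 it was at 427 and 645 (0.59, 0.38 to 0.81) and c19 held too few Control cells for a ratio.

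In LECs the receptors were nearly level between the libraries as processed here. The log2 ratios there were -0.04 for Nr3c2 (-0.29 to 0.21), -0.17 for Nr3c1 (-0.47 to 0.13), 0.02 for Sgk1 (-0.17 to 0.20) and 0.02 for Fkbp5 (-0.29 to 0.33), on 138 and 157 cells. With double the number of doublets removed, the LEC ratios of Nr3c2 and Nr3c1 turned in sign, to 0.51 and 0.17. Klf9, lower past 2-fold in LECs, came to -0.90 in that setting. In neutrophils Nr3c1 was lower, at 255 and 92.6 CPM (-1.46, -1.82 to -1.08), although the median of all genes there was 0.44 higher in the AngII+HS library and the 98 Control neutrophils held only 69 UMIs of the gene. With TMM factors this ratio was -0.84, within 2-fold. Nr3c2 was also past 2-fold in neutrophils (-1.06), but with an interval from -3.08 to 2.07, and was -0.44 with TMM factors. In DCs Fkbp5 was lower, at 85.8 and 23.1 (-1.89, -2.69 to -1.01), on 16 UMIs in the Control library. In B cells Hsd11b1 was lower, at 58.7 and 22.4 (-1.39, -2.17 to -0.56), on 20 and 49 UMIs. Per1 was not past 2-fold in any type.

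**Figure D5:**
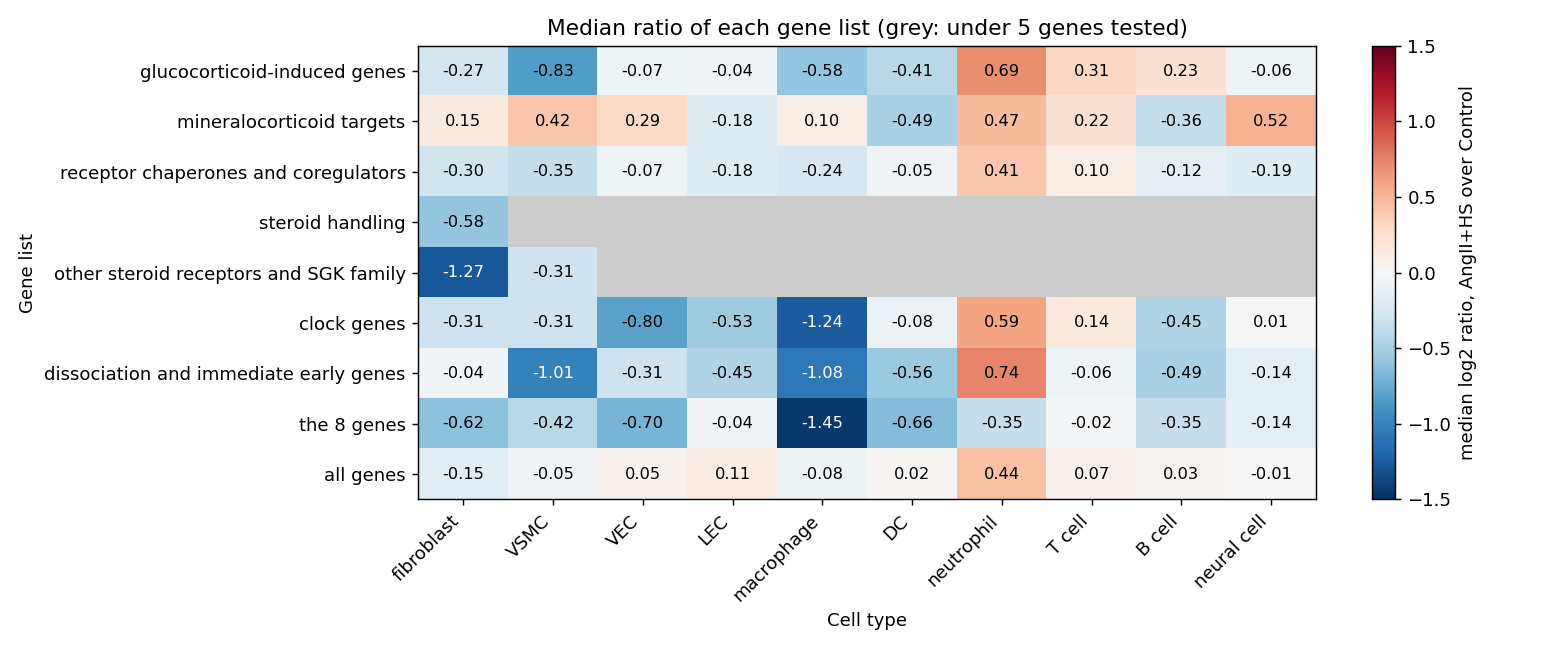
Median log2 ratio of the AngII+HS level over the Control level for 7 gene lists, the 8 genes and all genes compared (rows) in 10 cell types (columns), grey where under 5 genes of a list had enough UMIs. The 8 genes are lowest in macrophages, at -1.45, where clock genes are at -1.24 and all genes at -0.08.

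Other genes of the pathway were read from lists. Of 24 further glucocorticoid-induced genes, 8 were lower and 3 higher past 2-fold in macrophages (median log2 ratio -0.58), 9 lower and 2 higher in VSMCs (-0.83), 4 lower and 2 higher of 22 compared in VECs (-0.07), and 2 lower and 1 higher of 23 in fibroblasts (-0.27). In macrophages, Cd163, a scavenger receptor, was at 548 and 44.3 CPM (-3.63), and Zbtb16, a transcription factor, at 84.2 and 12.1 (-2.80), whereas Il7r was at 7.44 and 138 (4.22) and Il1r2, a decoy receptor of interleukin-1, at 10.7 and 22.7 (1.09). Within c2, Cd163 was at 650 and 77.9 and Zbtb16 at 96.4 and 19.4. In VECs the metallothioneins Mt2 (654 and 201, -1.70) and Mt1 (948 and 338, -1.49) were lower, and Angptl4 (20.5 and 70.3, 1.77) and Cebpb (255 and 434, 0.77) were highest. In VSMCs Cdkn1a (419 and 128, -1.71) and Cdkn1c (20.8 and 7.74, -1.43) were lowest and Anxa1 (153 and 262, 0.78) and Mertk (0.25) highest. In fibroblasts Rasd1 (32.1 and 13.1, -1.30) and Zbtb16 (154 and 69.7, -1.14) were lowest, and Il1r2 (0.99) and Angptl4 (0.63) highest. The genes named in these 3 types are the highest and lowest with at least 200 UMIs. At fewer UMIs, log2 ratios were greater for Il1r2 in VSMCs (4.81) and VECs (2.19) and for Il7r in VSMCs (2.66) and fibroblasts (2.26). Markers of leukocytes were higher in these types as well. The 6 neutrophil markers summed to 6.01 and 145 CPM in VSMCs, 11.5 and 196 in VECs and 8.45 and 178 in fibroblasts. The 6 T cell markers summed to 0.717 and 6.35 in VSMCs and 1.92 and 9.37 in fibroblasts. Their part in these ratios was not tested. Over all genes, 16.9% were lower and 12.5% higher in macrophages, and 11.6% and 6.14% in VSMCs. In VSMCs 8 of 14 dissociation and immediate early genes were also lower past 2-fold (median -1.01), and their part was not tested. The list did not go one way within any of these types.

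Mineralocorticoid targets had median log2 ratios of 0.15 in fibroblasts, 0.42 in VSMCs, where 2 of 11 genes were higher and 2 lower past 2-fold, 0.29 in VECs and 0.10 in macrophages. Over all genes in VSMCs, 6.14% were higher and 11.6% lower. In DCs the medians of the mineralocorticoid and glucocorticoid lists were -0.49 and -0.41, in LECs -0.18 and -0.04, and in neutrophils 0.47 and 0.69. In fibroblasts 1 of 12 genes compared was higher past 2-fold, against 7.85% of all genes. It was Lcn2, which encodes neutrophil gelatinase-associated lipocalin, at 2.70 and 84.5 CPM (4.97). The summed level of 6 neutrophil markers in fibroblasts was 8.45 and 178, and its part in this result was not tested. Pgf, a growth factor, was at 11.8 and 29.4 (1.32) in VECs and at 19.4 and 37.3 (0.94) in VSMCs, and in VSMCs Atp1b1 was at 6.41 and 14.1 (1.14). Edn1, which encodes endothelin-1, was lower in VSMCs, at 18.5 and 2.79 (-2.73), and in macrophages, at 32.1 and 15.9 (-1.01). Within macrophage cluster c2 the Edn1 ratio was -0.57. Nedd4l was lower in VSMCs (-1.08). Lcn2 in macrophages was at 38.1 and 13.4 (-1.51), but 81 of its Control UMIs came from the 40 cells of cluster c4, and in c2 it went the other way, at 0.56 and 11.1 (4.30, interval 1.79 to 9.62). Icam1, which binds leukocytes, was at 1302 and 967 in VECs (-0.43). The epithelial sodium channel gene Scnn1g had no UMI in fibroblasts, VSMCs or VECs of either library.

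Of 16 chaperones and coregulators of the receptors, none was past 2-fold in fibroblasts, VSMCs or VECs. In macrophages 1 was lower, the coactivator Ncoa1 (151 and 71.6, -1.08). Over all genes, 5.99% to 16.9% were lower and 6.14% to 12.5% higher in these cell types. Within macrophage cluster c2, none of the 16 was lower past 2-fold, with Ncoa1 at -0.95, and 1 was higher, Bag1 (1.02). No share over all genes was computed for c2. In neutrophils, where the median log2 ratio over all genes was 0.44, 3 genes of the list were higher and 2 lower past 2-fold. In DCs, where that median was 0.02, 1 was lower. Shares of all genes past 2-fold in neutrophils and DCs are not given here, so these counts are not read further. The summed level in VSMCs was 6832 and 4303 CPM, with a median log2 ratio of -0.35. The chaperone Hsp90aa1 was at 1424 and 713 CPM in VSMCs, just within 2-fold. Bag1 had the highest ratio of the list in macrophages (0.87) and VECs (0.59). Among other steroid receptors, Esr1 was lower in fibroblasts, at 125 and 47.4 (-1.40), in macrophages (-1.34) and in VECs (-0.81), and Pgr was at 51.6 and 28.0 in VSMCs (-0.88). Sgk3, a relative of Sgk1, was at 18.4 and 14.6 in fibroblasts (-0.33). Of the steroid handling genes, Star, which carries cholesterol into mitochondria, was at 6.31 and 26.4 in fibroblasts (2.06). There, Cyp11b1, Cyp11b2 and Hsd3b1 of the adrenal cortex markers had no UMI in either library. Cyp21a1 was counted in both libraries, and Cyp11a1 in the AngII+HS library only. With Star, the 6 markers summed to 6.53 and 26.8 CPM. Abcb1a, an exporter, was at 15.3 and 6.54 in fibroblasts (-1.23) and at 35.6 and 57.3 in VECs (0.69).

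Clock genes were lower past 2-fold in 9 of 14 compared in macrophages (median -1.24; 16.9% of all genes lower there), with 1 higher, in 6 of 15 in VECs (-0.80) and in 1 of 15 each in fibroblasts (-0.31) and VSMCs (-0.31). Within macrophage cluster c2, 3 of 13 clock genes were lower past 2-fold (median -0.87), with no share over all genes computed for c2. In macrophages Nr1d2, a repressor of the clock, had a log2 ratio of -1.95, with 25.9 CPM in the AngII+HS library, Arntl was at 49.8 and 14.4 (-1.79), and Bhlhe40 was at 83.7 and 259 (1.63). In VECs Dbp (50.6 and 16.3, -1.63) and Bhlhe40 (539 and 243, -1.15) were lowest. Dbp was at 70.8 and 110 in VSMCs (0.64). Per1, which belongs to the clock as well, was at 70.0 and 43.1 in VECs (-0.70, -0.94 to -0.46) and at 43.2 and 55.2 in fibroblasts (0.36, 0.19 to 0.52). The hour at which tissue was taken is not given in the sources used here, and any part of it in these values was not tested.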

How the data were processed

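Abdominal aortas were digested to single cells and sequenced on the 10x Genomics 3' platform, 1 library per group. The deposited values are whole UMI counts per gene and barcode, which the authors made with Cell Ranger and which were not normalized, filtered on quality or freed of doublets. The file headers name Cell Ranger 8.0.1, the study's methods name an earlier version and GRCm39, and the submitters' processing notes name mm10. Of 33696 gene IDs, 33185 (98.5%) are in GENCODE on GRCm39. Recent Cell Ranger versions count intronic reads by default, which adds to the UMIs of long genes such as Nr3c2. Groups came from the labels. No column of another sample was present.

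Cells with at least 500 UMIs, 200 genes and under 20% mitochondrial UMIs were kept (study methods), and the cells of highest Scrublet score (scanpy 1.11.5) were removed at 0.8% per 1000 cells, 1019 in the Control and 4826 in the AngII+HS library. Integration in R 4.3.3 (Seurat 5.3.0, Matrix 1.6.5, SeuratObject 5.2.0) used 2000 variable genes, leaving out the 8 genes and all pathway lists, and was followed by clustering on 30 components at resolution 0.8. Clusters were named from marker genes (at least 3 detected). Those with markers of another type among the 10 leading genes, or of low depth without an own marker there, stayed unnamed: 959 Control and 948 AngII+HS cells. Plasma cells and erythroid cells had under 50 cells in at least 1 library.

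UMIs were summed per type and library with numpy 2.4.6, pandas 2.3.3 and scipy 1.17.1 (Python 3.11.15). Intervals are exact Poisson for levels, exact conditional binomial for ratios and Clopper-Pearson for shares, at 95%. Those of ratios were tested on simulated Poisson counts, which hold no spread between cells. Floors stand at 3 UMIs. Named beside the 8 genes are, per list and in 4 cell types, the 2 highest and 2 lowest genes by ratio at 200 or more UMIs, the 3 genes most correlated with each, leading genes of clusters and, where said, genes picked after their values were seen. Some genes that the rule names are not reported here. The 8 genes and the lists were chosen with earlier results of these data known. Other alternatives used edgeR 4.0.16 (TMM factors only) and are in the closing section. Promoter windows are from RefSeq on GRCm38.p6, and 7 of the 8 genes had a window. Plots were drawn with matplotlib 3.10.9.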

Additional observations from a re-analysis of the deposited data

How the results depend on the processing

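Of 74 log2 ratios, 47 kept their sign under every alternative, as did 16 of the 17 that were past 2-fold. The exception was Klf9 in DCs, at 0.64 when the libraries were merged without integration against -1.31, a setting that left the main Control VSMC cluster without a name. TMM factors turned 11 signs and scaling without mitochondrial genes 1. TMM moved the log2 ratios by 0.62 in neutrophils and DCs, 0.24 in macrophages, 0.20 in fibroblasts and -0.23 in LECs. The count of pairs higher by 2-fold or more, 1 as reported, was 4 with no doublets removed, 0 after merging without integration, 4 with TMM factors, 3 with equal weight per cell, 2 with RNA from outside the cell subtracted and 4 with no minimum of UMIs. The cause was not tested. The count of pairs lower, 16 as reported, was between 11 (TMM) and 19 (no minimum), and the genes with the same highest type in both libraries were between 4 and 7. Counting the low-depth cluster c6 as fibroblasts, an alternative chosen after seeing the data, kept all 3 counts. No paired analysis was possible because each group has 1 library, and no library could be left out. Hsd11b1 was compared in the fewest types, with under 20 UMIs in 5 of 10. Among these were VSMCs, which held the most Control UMIs of all types and had Hsd11b1 at 0.202 and 1.24 CPM. Ratios in DCs, neutrophils, B cells and T cells rest on 55 to 133 Control cells.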
